A study of Mus musculus with 147 samples.

Results

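This account covers islet macrophages of mice on a high-fat diet (HFD) for 8 weeks, set against islet macrophages of mice on normal chow (ND). The libraries were chosen by their labelled population and diet, 4 HFD and 4 ND, which makes 8 of the 147 libraries of the series. In each diet the libraries carry the cohort numbers 1, 3, 4 and 5, so that every cohort gives 1 HFD and 1 ND library. Each library was made by Smart-seq2 from polyA RNA of 400 macrophages purified by fluorescence-activated sorting with antibodies that the labels do not name. Another 3 islet libraries, of cohorts 3, 4 and 5, came from mice on HFD that also received streptozotocin (STZ), which kills beta cells, at week 4 of the diet, and they served to estimate the spread between libraries. The labels give neither strain, sex, age, body weight and blood glucose nor whether a library came from 1 mouse or from pooled islets. Nothing in the labels states that 2 libraries of a diet came from separate animals, so each p-value measures the spread between these libraries, which may in part be technical.

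Resident macrophages sit inside the islets of Langerhans beside the beta cells and the capillaries. In mice they are known for CD11c (Itgax), a high load of class II major histocompatibility complex (MHC), a steady output of IL-1β and TNF, and the uptake of secretory granules released by beta cells. Feeding a high-fat diet is known to enlarge islets in mice over weeks to months, and macrophages of obese tissue are known to take up lipid, store it in droplets and switch on genes for lipid handling.

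The 8 libraries held the transcripts of this cell type. In levels scaled across the 37 libraries of the diet experiment and given as CPM, the counts of a gene scaled to a fixed library total, Itgax ranged from 398 to 679.7 in HFD and from 388 to 598 in ND libraries, and H2-Ab1, an MHC class II chain, from 20700 to 30270 in HFD and from 23200 to 28070 in ND libraries. Peritoneal macrophages of the same experiment held 0 to 2.09 CPM of Itgax and 62.8 to 739.5 CPM of H2-Ab1. The macrophage receptor gene Csf1r stood at 2184 to 3779 CPM in HFD and 2547 to 3117 CPM in ND libraries. Sall1, a transcription factor of microglia, reached 0.848 CPM at most, and Gata6, that of peritoneal macrophages, had 0 counts in all 8 islet libraries. Tmem119, another microglia marker, was not absent, at 150.2 to 321.6 CPM in HFD and 104.1 to 239.9 CPM in ND libraries. Microglia held 3743 to 5952 CPM of it and peritoneal macrophages 8.34 to 24.07 CPM. P2ry12 ranged from 0 to 34.71 CPM in HFD and from 0 to 16.25 CPM in ND libraries, against 2871 to 6379 CPM in microglia. Depth was 13.3 to 15.5 M counts in HFD and 13.2 to 15.7 M counts in ND libraries, and 12036 to 14536 genes had a count in HFD against 10828 to 13314 in ND libraries (exact permutation test, two-sided, p = 0.0857, adjusted p = 0.343 over 4 library measures). No 2 libraries of the same diet held identical counts.

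The HFD and ND libraries of cohort 5 stood apart. Summed over 16 B cell and plasma cell genes, the HFD library of cohort 5 held 24410 CPM and the ND library of cohort 5 held 17080 CPM, against 323 to 336 CPM in the other HFD and 243 to 298 CPM in the other ND libraries. Igkc, the immunoglobulin kappa constant region, stood at 11080 CPM in that HFD library and at 5810 CPM in that ND library. The library of HFD with STZ of cohort 5 held only 470.5 CPM of the sum and 11.9 CPM of Igkc. Without the HFD and ND libraries of cohort 5, edgeR called 0 of 128 named genes. The log2 value of 8 of them moved by more than its SE, and 5 changed sign, Abca1, Cd74, Csf1r, Stat6 and Tnf. Values without cohort 5 are given beside some of the genes below.

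No gene passed the test of HFD against ND in the fit of the islet libraries. Over the 12406 genes that passed a filter on low counts, edgeR's quasi-likelihood test with cohort as a block called 0 (0%) at a Benjamini-Hochberg adjusted p below 0.05, and the smallest adjusted p was 1. At an unadjusted p below 0.05 there were 300 genes (2.42%), 217 of them higher in HFD (1.75%) and 83 lower (0.669%). The HFD and ND libraries did not overlap for 294 genes (2.37%), 197 higher in HFD (1.59%) and 97 lower (0.782%). Limma's voom with quality weights also called 0 genes, with 608 at an unadjusted p below 0.05. DESeq2 called 224, 191 higher and 33 lower, but 206 of these had a library at 0 counts. Of the 224, 8 had at least 10 CPM in all 8 libraries, with DESeq2 adjusted p of 0.000243 for Mmp12, 0.00892 for Sdc4, 0.0096 for Nr3c1, 0.0173 for Plin2, 0.0208 for Unc45a, 0.0304 for Cd36, 0.031 for Slc40a1 and 0.0479 for Dock2. When the p-values of this DESeq2 fit were adjusted over the 4345 genes at that level alone, 1 was called, Mmp12. A joint edgeR fit of 37 libraries of 3 macrophage populations, described at the end, called 195 of 17230 genes (1.13%) for the same contrast, 174 higher in HFD and 21 lower, and 169 of these had an islet library at 0 counts. As the calls depended on the fit, the genes below are described by their values and not as changes.

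The lack of calls came with a limited precision. A log2 fold change of HFD over ND had a median standard error (SE) of 1.36 over all genes and of 0.389 over the 4345 genes with at least 10 CPM in all 8 libraries. For those genes the 95% interval reached 0.871 log2 units to each side at the median. That interval is not adjusted for the number of genes tested, and larger differences also went uncalled in this fit, such as that of Nr3c1 (log2 1.34). The median log2 fold change of the 4345 genes was -0.007, and 49.1% of them were higher in HFD. Of these 4345 genes 125 (2.88%) had an unadjusted p below 0.05 in edgeR, and 82 (1.89%) did not overlap between the diets, 41 higher in HFD (0.944%) and 41 lower (0.944%). Over all 12406 genes the median log2 fold change was 0.133, and 58% of them were higher in HFD.

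**Figure D1:**
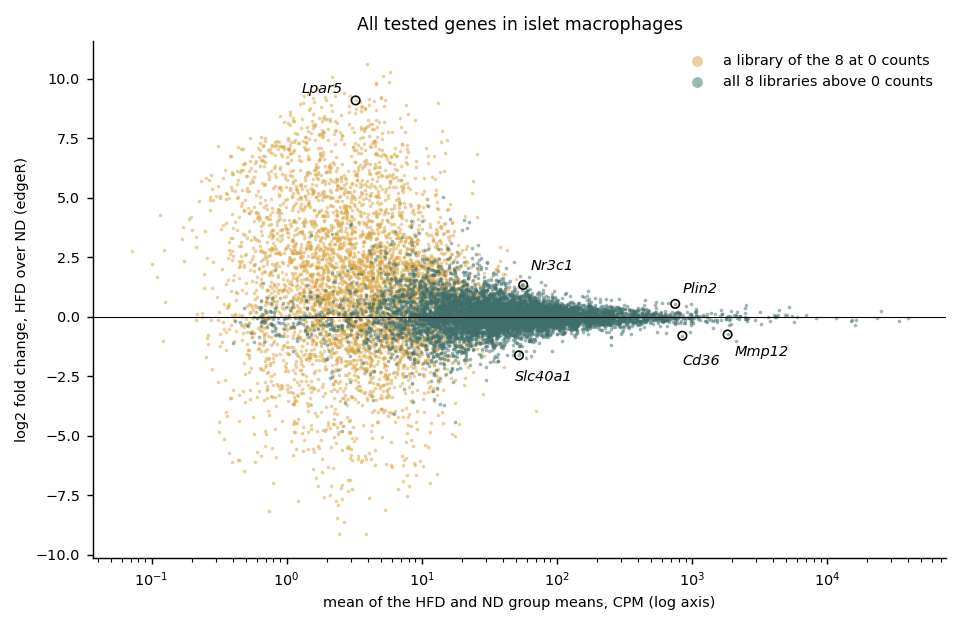
Each point is 1 of the 12406 tested genes in islet macrophages, with the mean of the 2 diet group means in CPM on a log x axis and the log2 fold change of HFD over ND from edgeR on the y axis. Ochre points have a library of the 8 at 0 counts, and they fill the low levels where fold changes spread widest, while of the 4345 genes with at least 10 CPM in all 8 libraries 62 lie beyond 1 log2 unit from 0.

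Of the 30 genes with the smallest p, from 0.000658 to 0.0106, 21 had more than 3 counts in all 8 libraries, 10 of them higher in HFD and 11 lower. For 29 of the 30 the 4 cohorts all pointed the same way. Picking genes by the smallest p in a fit with cohort as a block favours such genes. Agreement in 4 of 4 cohorts is therefore a description of these genes and no separate evidence. Mmp12, which encodes macrophage metalloelastase, a secreted protease that cleaves elastin, had the smallest p (chromosome 9, 7344381 to 7369499, plus strand). It stood at 2202, 1457, 496 and 1554 CPM in the HFD libraries of cohorts 1, 3, 4 and 5, against 3594, 1817, 1198 and 2429 CPM in the ND libraries of the same cohorts. The diets overlapped, but in 4 of 4 cohorts the HFD library was lower, and the fitted level in HFD was 0.6 times that in ND (log2 -0.74 ± 0.15, edgeR adjusted p = 1). Without cohort 5 the log2 value was -0.77. DESeq2 gave Mmp12 an adjusted p of 0.000243 over all genes and of 0.00673 over the genes with at least 10 CPM in all 8 libraries. Its exons overlap those of Mmp1b, and as no source used here gives the strand setting of the counting, reads of either may be counted for both or for neither. Mmp13, a collagenase gene, stood at 277, 340.1, 142 and 335 CPM in HFD and 352, 317, 544 and 515 CPM in ND libraries (log2 -0.72 ± 0.29, edgeR adjusted p = 1), with cohort 3 as the exception to the lower HFD values.

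The second smallest p belonged to Nr3c1, which encodes the glucocorticoid receptor, a ligand-activated transcription factor that restrains inflammatory genes. Its level was 89.5, 74.7, 57.7 and 99.6 CPM in HFD libraries and 28.4, 35.6, 18.1 and 48.3 CPM in ND libraries. Every HFD library lay above every ND library, and the fitted ratio was 2.54 (log2 1.34 ± 0.32, edgeR adjusted p = 1; 1.45 without cohort 5). The libraries of HFD with STZ, at 57.7, 60.2 and 94.5 CPM, also lay above the ND libraries. Of 17 other listed genes that the receptor is known to induce, 16 were tested, and 7 were higher in HFD and 9 lower, with a median log2 value of -0.055. Sgk1, a kinase gene that glucocorticoids induce, stood at 100.2 to 367 CPM in HFD and 177 to 335 CPM in ND libraries (log2 -0.48 ± 0.25, edgeR adjusted p = 1). Klf9, also in that list, pointed upward, at 3.901 to 7.479 CPM in HFD and 0 to 8.736 CPM in ND libraries (log2 5.005 ± 2.541). Its level was near the floor, with 3 counts or fewer in 2 ND libraries.

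**Figure D2:**
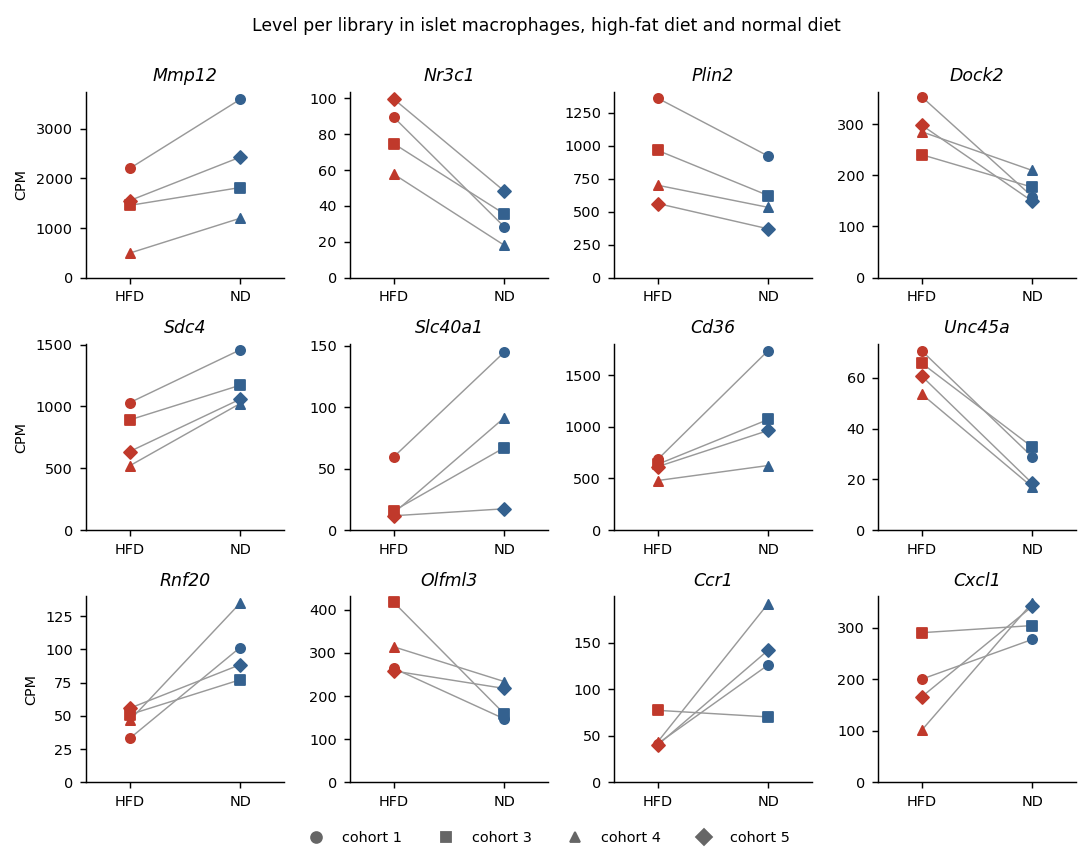
Level in CPM (y axis, from 0) of 12 genes among the 30 with the smallest p, in each HFD library (red, left) and ND library (blue, right), with a line joining the libraries of a cohort and a marker shape for each cohort. Nr3c1, Dock2, Unc45a, Olfml3 and Rnf20 do not overlap between the diets, whereas Mmp12 and Plin2 differ between cohorts by more than between the diets within a cohort.

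Lipid genes pointed in different directions. Plin2, which encodes perilipin 2, a coat protein of lipid droplets, was the gene with the third smallest p (chromosome 4, 86648386 to 86670060, minus strand). Its level was 1361, 965, 701 and 562 CPM in HFD libraries and 922, 623, 533 and 371 CPM in ND libraries, with the order of the cohorts the same in both diets. The HFD library was the higher in 4 of 4 cohorts, by a fitted ratio of 1.46 (log2 0.55 ± 0.13, 95% interval 0.25 to 0.84, edgeR adjusted p = 1), and the value was 0.53 without cohort 5. Cd36, a scavenger receptor that imports long-chain fatty acids, pointed the other way, at 685, 638, 480.2 and 615 CPM in HFD libraries and 1740, 1072, 626 and 965 CPM in ND libraries. All 4 HFD libraries lay within a narrow range, the ND library of cohort 4 fell inside it, and the other 3 ND libraries lay above it (log2 -0.79 ± 0.23, edgeR adjusted p = 1; -0.83 without cohort 5).

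Lpl, which encodes lipoprotein lipase, averaged 88.4 ± 26.2 CPM in HFD and 137 ± 50.2 CPM in ND libraries (SD, n = 4 each; log2 -0.66 ± 0.37, edgeR adjusted p = 1). Cpt1a, the carnitine shuttle enzyme that carries fatty acids into mitochondria, ranged from 77.3 to 132 CPM in HFD and from 43.3 to 138 CPM in ND libraries (log2 0.46 ± 0.35), and Abca1, a cholesterol exporter, from 176 to 1077 CPM in HFD and from 279 to 886 CPM in ND libraries (log2 -0.09 ± 0.21). Pdk4, a kinase gene that fatty acids induce in other tissues, had 0 counts in all 11 islet libraries.

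By list, 23 of 32 genes of PPAR targets and lipid storage passed the filter, 12 higher in HFD and 11 lower, with a median of 0.02 against 0.133 for all genes. Of 22 genes of fatty acid oxidation, 13 were higher and 9 lower (median 0.14). Of 25 genes of cholesterol synthesis and uptake, 23 were tested, 15 higher and 8 lower (median 0.25), and of 16 genes of fatty acid synthesis 13 were tested, 11 higher and 2 lower (median 0.58). In that last list only 5 members had at least 10 CPM in all 8 libraries, with 4 higher, a median of 0.45 and Acly, the ATP citrate lyase gene, at 124, 164, 107.4 and 209.5 CPM in HFD and 93.9, 75.6, 111.6 and 123 CPM in ND libraries (log2 0.58 ± 0.27, edgeR adjusted p = 1).

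The markers of lipid-associated macrophages, a state described in fat tissue of obese mice, also went both ways. Of 26 listed genes 25 were tested, 12 higher in HFD and 13 lower, with a median of -0.11. Trem2, the lipid-sensing receptor of that state, stood at 205, 274, 225 and 146 CPM in HFD and 191, 247, 106.6 and 125 CPM in ND libraries (log2 0.38 ± 0.21, 95% interval -0.10 to 0.85, edgeR adjusted p = 1), so the HFD library was the higher in 4 of 4 cohorts while the diets overlapped. Gpnmb, a glycoprotein of lysosomes, ranged from 7.4 to 39.1 CPM in HFD and from 0 to 48.7 CPM in ND libraries. Apoe, which packages cholesterol, was at 29810, 33720, 28590 and 17370 CPM in HFD and 25100, 20990, 27570 and 18140 CPM in ND libraries (log2 0.23 ± 0.13, edgeR adjusted p = 1). Ctsd, the gene of the lysosomal protease cathepsin D, stood at 641, 1257, 876 and 443 CPM in HFD and 708, 718, 374 and 346 CPM in ND libraries, higher in HFD in 3 of 4 cohorts (log2 0.57 ± 0.23, edgeR adjusted p = 1). The libraries of HFD with STZ held 2081 to 2679 CPM of Ctsd, above all 8 libraries of the other groups, and 248 to 346 CPM of Trem2 and 47.3 to 96.3 CPM of Gpnmb, which overlapped them.

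Genes of iron handling and antioxidant defence were mostly lower in HFD. Of 21 listed genes 19 were tested, 5 higher and 14 lower, with a median of -0.25 that stayed negative (-0.32 to -0.16) in every alternative run. Slc40a1, which encodes ferroportin, the exporter of iron from cells, stood at 59.5, 15.7, 13.8 and 11.6 CPM in HFD and 145, 67, 91.3 and 17.3 CPM in ND libraries (chromosome 1, 45908068 to 45926523, minus strand). The HFD library was the lower in 4 of 4 cohorts (log2 -1.61 ± 0.42, edgeR adjusted p = 1; -2.01 without cohort 5). Libraries of HFD with STZ held 78.5, 152 and 30.3 CPM, which overlapped both diets. Fth1, the ferritin heavy chain that stores iron, was at 18880, 16030, 12970 and 9718 CPM in HFD and 20730, 19240, 18230 and 13010 CPM in ND libraries. Its cohorts kept the same order in both diets, and the fitted ratio was 0.798 (log2 -0.33 ± 0.10, edgeR adjusted p = 1). Prdx1, a peroxiredoxin that removes hydrogen peroxide, stood at 2196, 931, 778 and 758 CPM in HFD and 3237, 1781, 920.4 and 823 CPM in ND libraries (log2 -0.47 ± 0.15, edgeR adjusted p = 1). Processed copies of Fth1 and Prdx1 exist in the genome, so reads may be shared with them.

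The cytokine genes Il1b and Tnf overlapped between the diets. Il1b stood at 2364, 3326, 2443 and 1709 CPM in HFD and 2148, 2664, 4327 and 1603 CPM in ND libraries, with a log2 value of -0.08 ± 0.18 and a 95% interval of -0.48 to 0.32 (edgeR adjusted p = 1). Its exons overlap the antisense gene Il1bos. Tnf was at 479, 805, 455 and 395 CPM in HFD and 423, 803, 446 and 534 CPM in ND libraries (log2 -0.05 ± 0.15, 95% interval -0.39 to 0.29; 0.07 without cohort 5). Each interval contained 0 together with moderate differences in either direction. Il1rn, which encodes the IL-1 receptor antagonist, ranged from 212 to 533 CPM in HFD and from 164 to 518 CPM in ND libraries (log2 0.19 ± 0.24). Of 16 genes of interleukin-1 and the inflammasome 9 were higher in HFD and 7 lower. The member with the smallest p was Aim2, a sensor of cytosolic DNA, at 80.6, 38.6, 45.8 and 75.2 CPM in HFD and 29.4, 32.6, 10.9 and 20.8 CPM in ND libraries, which did not overlap (log2 1.42 ± 0.47, edgeR adjusted p = 1; 1.27 without cohort 5). Of 28 NF-kB cytokine and feedback genes 27 were tested, 14 higher and 13 lower (median 0.03).

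**Figure D3:**
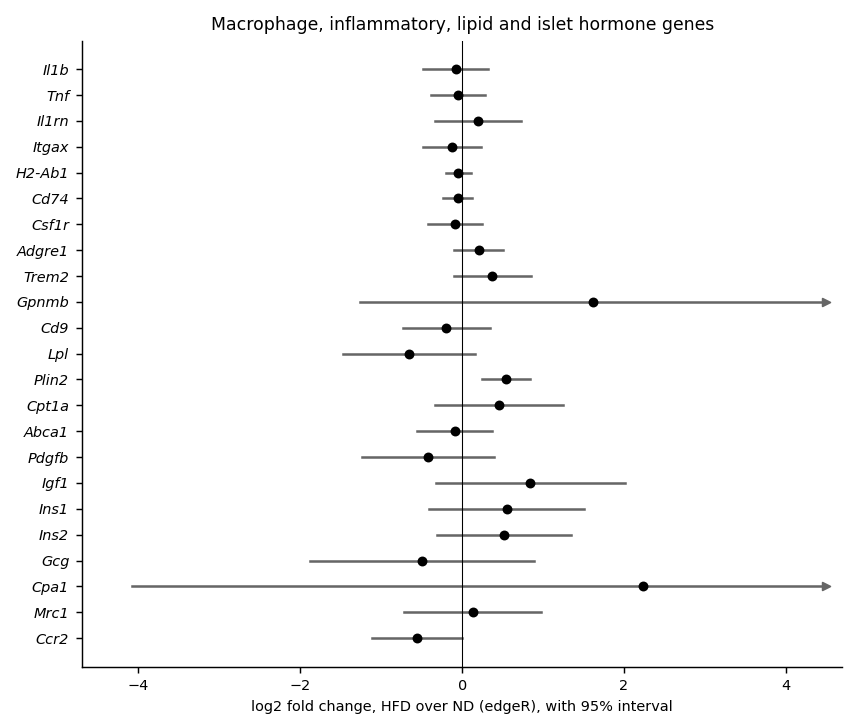
Log2 fold change of HFD over ND (x axis, points) with its 95% interval (bars, cut with an arrow where it passes 4.5) for 23 macrophage, inflammatory, lipid and islet hormone genes. Plin2 and Ccr2 have intervals that exclude 0 before adjustment for the number of genes tested, and the intervals of H2-Ab1 and Cd74 are the narrowest.

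Chemokine and chemokine receptor genes included several with lower values in HFD. Ccr1, a receptor for CCL3 and CCL5, stood at 41.6, 77.3, 43.6 and 40.2 CPM in HFD and 126, 70.2, 192 and 142 CPM in ND libraries. Only in cohort 3 was the HFD library the higher (log2 -1.43 ± 0.40, edgeR adjusted p = 1; -1.27 without cohort 5). Cxcl1, which attracts neutrophils, was at 200.2, 290.2, 101.4 and 166 CPM in HFD and 277, 304, 348 and 341 CPM in ND libraries, and Cxcl2, which does the same, at 275, 359.8, 260.1 and 257 CPM in HFD and 475, 395, 300.1 and 446 CPM in ND libraries. Both were lower in HFD in 4 of 4 cohorts while the diets overlapped (log2 -0.86 ± 0.26 and -0.48 ± 0.18, edgeR adjusted p = 1 each). Cxcl9 pointed the other way, at 13.18, 52.36, 41.36 and 46.56 CPM in HFD and 6.061, 23.89, 0 and 8.345 CPM in ND libraries. It was higher in HFD in 4 of 4 cohorts while the diets overlapped, and 1 ND library held 0 counts (log2 2.23 ± 1.15). Ccr2, the receptor that draws monocytes from blood, was at 58.6, 102.7, 156 and 99.2 CPM in HFD and 106.6, 176, 230 and 95.6 CPM in ND libraries (log2 -0.56 ± 0.25, edgeR adjusted p = 1). Over the 15 classical monocyte markers, of which Ccr2 is one, the summed level was 295 to 808 CPM in HFD and 269 to 560 CPM in ND libraries (exact permutation p = 0.571). Fewer monocytes in a sort and less Ccr2 RNA per cell cannot be told apart in such bulk libraries. Of 23 chemokine genes 21 were tested, 11 higher and 10 lower (median 0.01).

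Genes for receptors and adaptors of innate sensing and for cell movement were split as well. Tlr7, a receptor for single-stranded RNA, averaged 84.2 ± 29.1 CPM in HFD and 133 ± 18.8 CPM in ND libraries (SD, n = 4 each), and Cd14, a co-receptor of lipopolysaccharide sensing, stood at 2282, 2197, 1268 and 1046 CPM in HFD and 2678, 2424, 2065 and 1206 CPM in ND libraries. Both were lower in HFD in 4 of 4 cohorts, without overlap for Tlr7 and with overlap for Cd14 (log2 -0.74 ± 0.28 and -0.32 ± 0.13, edgeR adjusted p = 1 each). Traf6, the ubiquitin ligase downstream of these receptors, pointed upward, at 74.9, 49.6, 87.1 and 91.1 CPM in HFD and 51.9, 10.8, 40.6 and 72 CPM in ND libraries (log2 1.00 ± 0.39, edgeR adjusted p = 1). Dock2, an exchange factor that activates Rac in migrating leukocytes, had the fourth smallest p (chromosome 11, 34226815 to 34783892, minus strand). Its level was 353, 240.2, 285 and 298 CPM in HFD and 158, 177, 209.5 and 149 CPM in ND libraries. The diets did not overlap, and the fitted ratio was 1.69 (log2 0.75 ± 0.18, 95% interval 0.34 to 1.17, edgeR adjusted p = 1; 0.68 without cohort 5). Its exons overlap 4930403D09Rik. Sdc4, a heparan sulfate proteoglycan of the cell surface, was lower in HFD in 4 of 4 cohorts, at 1030, 891, 519.7 and 635 CPM in HFD and 1457, 1171, 1023 and 1058 CPM in ND libraries (log2 -0.65 ± 0.16, edgeR adjusted p = 1; -0.62 without cohort 5). Only the HFD library of cohort 1 reached the ND range. Il21r, the interleukin-21 receptor gene, was higher in HFD in 4 of 4 cohorts, at 182, 244, 232 and 382 CPM in HFD and 111.5, 158, 94.6 and 284 CPM in ND libraries (log2 0.74 ± 0.20, edgeR adjusted p = 1).

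Protein folding genes of the cytosol and of the endoplasmic reticulum differed in their balance. Of 23 heat shock chaperone genes 22 were tested, 18 higher in HFD and 4 lower, with a median of 0.34 (0.20 to 0.43 over the alternatives). Among the 20 of them with at least 10 CPM in all 8 libraries, 17, 17, 6 and 14 were higher in the HFD library of cohorts 1, 3, 4 and 5, so cohort 4 ran the other way. Bag3, a co-chaperone, stood at 177, 305, 354 and 1397 CPM in HFD and 113.9, 113.4, 451 and 678 CPM in ND libraries, with cohort 4 as the exception to the higher HFD values and the cohorts farther apart than the diets (log2 0.69 ± 0.24, edgeR adjusted p = 1). Unc45a, an HSP90 co-chaperone that folds myosin, was at 70.6, 65.8, 53.6 and 60.6 CPM in HFD and 28.9, 32.7, 17 and 18.4 CPM in ND libraries (chromosome 7, 80325292 to 80341005, minus strand). It did not overlap between the diets (log2 1.41 ± 0.39, edgeR adjusted p = 1; 1.30 without cohort 5). Of 28 genes of the unfolded protein response, all tested, 13 were higher and 15 lower (median -0.03). Hyou1, a chaperone of the endoplasmic reticulum, stood at 31.8, 63.5, 47.1 and 33.8 CPM in HFD and 104.6, 82.1, 79.9 and 76.2 CPM in ND libraries and did not overlap (log2 -1.02 ± 0.34, edgeR adjusted p = 1; -0.95 without cohort 5). Uggt1, the glucosyltransferase that checks the folding of glycoproteins there, pointed upward without overlap, at 73.1, 68.6, 84.8 and 74.2 CPM in HFD and 46.4, 25.5, 15.3 and 47.3 CPM in ND libraries (log2 1.32 ± 0.42, edgeR adjusted p = 1).

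Cytosolic ribosomal protein genes leaned to lower values in HFD by a small amount. Of 46 tested members 1 was higher and 45 were lower, with a median log2 value of -0.23, and 0 passed the test. Over the 45 members with at least 10 CPM in all 8 libraries the summed level was 10460, 10750, 11480 and 13850 CPM in HFD and 11410, 14700, 14450 and 13440 CPM in ND libraries. The sums overlapped, and the members higher in the HFD library numbered 12, 1, 4 and 30 of 45 in cohorts 1, 3, 4 and 5, so that cohort 5 went against the other 3. The list median was -0.30 to -0.14 over the alternatives, those without cohort 5 included. Rps24 stood at 173, 148, 183 and 199 CPM in HFD and 198, 280.1, 296 and 262 CPM in ND libraries (log2 -0.56 ± 0.21, edgeR adjusted p = 1). Ribosomal protein genes have many processed copies, so their reads are uncertain.

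Interferon-stimulated genes leaned the other way. Of 42 members, all tested, 33 were higher in HFD and 9 lower, with a median of 0.29 (0.14 to 0.51 over the alternatives), against 58% higher and a median of 0.133 over all genes. For the 25 members with at least 10 CPM in all 8 libraries the summed level was 4196, 3732, 3954 and 3325 CPM in HFD and 4473, 3448, 3016 and 3050 CPM in ND libraries. The ND library of cohort 1 was the highest of the 8, and 8, 16, 19 and 16 of the 25 members were higher in the HFD library of cohorts 1, 3, 4 and 5. Ifi44, an interferon-induced gene, was at 43.9, 23.9, 8.23 and 18.4 CPM in HFD and 5.53, 0.0654, 0 and 1.58 CPM in ND libraries, which did not overlap although 1 ND library held 0 counts (edgeR adjusted p = 1). Irf9, the DNA-binding subunit of the factor that drives these genes, was lower in HFD in 4 of 4 cohorts, at 88.7, 97, 143 and 128 CPM in HFD and 124, 132, 212 and 174 CPM in ND libraries (log2 -0.49 ± 0.21, edgeR adjusted p = 1). Its exons overlap Rnf31.

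Of the genes of antigen presentation, Cd74 and H2-Ab1 stood near equal levels in both diets with narrow intervals. Cd74, the MHC class II invariant chain, stood at 41330, 44470, 37440 and 32850 CPM in HFD and 39130, 40940, 40450 and 40860 CPM in ND libraries (log2 -0.06 ± 0.08, 95% interval -0.23 to 0.12, edgeR adjusted p = 1; 0.03 without cohort 5). H2-Ab1 was at 22090, 27210, 23620 and 19300 CPM in HFD and 22150, 26200, 24510 and 21890 CPM in ND libraries (log2 -0.04 ± 0.07, 95% interval -0.20 to 0.11). The diets overlapped for both genes, and these were the narrowest intervals of the 23 genes that were named whatever their p. Ciita, the transactivator of class II genes, was lower in HFD in 3 of 4 cohorts, at 107.8, 96.7, 101.2 and 137 CPM in HFD and 184, 154, 225 and 125 CPM in ND libraries (log2 -0.60 ± 0.31, 95% interval -1.28 to 0.09, edgeR adjusted p = 1). Of 14 class II presentation genes, all tested, 3 were higher and 11 lower (median -0.10). Itgax was at 389, 611, 384 and 371 CPM in HFD and 456, 559, 511 and 366 CPM in ND libraries (log2 -0.13 ± 0.16, 95% interval -0.49 to 0.24), where the libraries of HFD with STZ held 813, 677 and 810.4 CPM. Of 16 core markers of resident macrophages 9 were higher and 7 lower (median 0.05), and of 14 markers of the islet macrophage type 5 were higher and 9 lower (median -0.05). Mrc1 (CD206), a marker of macrophages of the exocrine stroma in the pancreas, ranged from 55.8 to 85.1 CPM in HFD and from 21.5 to 106.2 CPM in ND libraries (log2 0.13 ± 0.38). Of 12 markers of that type 11 were tested, 9 higher in HFD and 2 lower (median 1.51). Only 2 of them had at least 10 CPM in all 8 libraries (median 0.14). The summed level of the 12 was 287.8 to 532.4 CPM in HFD and 218.3 to 627.3 CPM in ND libraries (exact permutation p = 0.686).

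**Figure D4:**
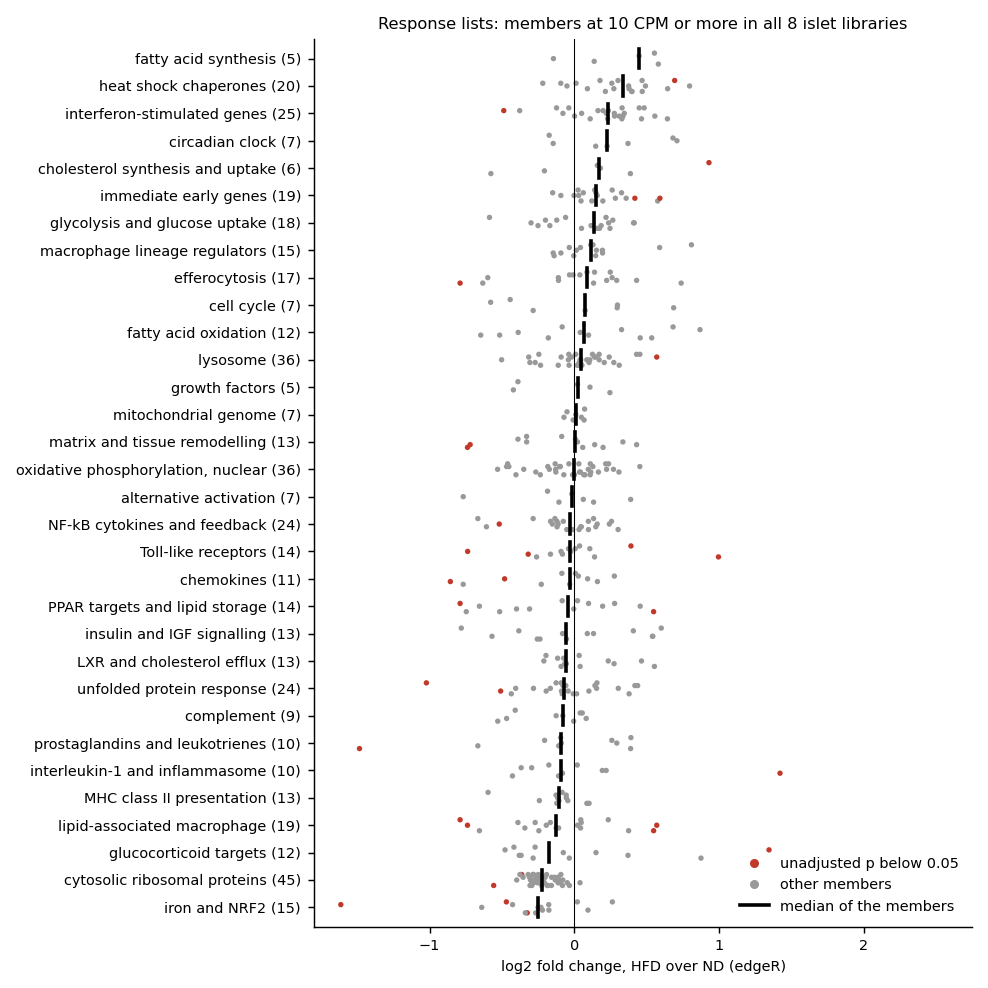
Log2 fold change of HFD over ND (x axis) of the members of 32 response lists (y axis, number of members in brackets) that had at least 10 CPM in all 8 islet libraries, with the list median as a black bar and members with an unadjusted p below 0.05 in red. Medians farthest to the right are those of fatty acid synthesis (0.45) and heat shock chaperones (0.34), and those farthest to the left are iron and NRF2 genes (-0.25) and ribosomal proteins (-0.23).

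In the other lists members stood on both sides of 0. Growth factor genes had 13 higher and 6 lower of 19 tested, including Igf1, an insulin-like growth factor, at 28.1, 25.9, 33.1 and 29.5 CPM in HFD and 22.3, 5.11, 13.7 and 30.3 CPM in ND libraries (log2 0.84 ± 0.52, edgeR adjusted p = 1; 1.27 without cohort 5), where HFD with STZ gave 129, 126 and 88.5 CPM. Immediate early genes had 19 higher and 8 lower of 27 (median 0.14). Nr4a1, an orphan nuclear receptor induced within minutes of activation, stood at 439.8, 606, 552 and 1207 CPM in HFD and 217, 289, 613 and 918 CPM in ND libraries (log2 0.59 ± 0.20, edgeR adjusted p = 1). Lysosome genes had 26 higher and 12 lower of 38 (median 0.05), and glycolysis genes 15 higher and 9 lower of 24 (median 0.17). Nuclear genes of oxidative phosphorylation split 19 to 19 (median -0.01). Ptgs1, the constitutive cyclooxygenase gene, was lower in HFD in 4 of 4 cohorts, at 10.1, 67.3, 27.1 and 19.8 CPM in HFD and 44.9, 97.7, 45 and 114.7 CPM in ND libraries (log2 -1.48 ± 0.49, edgeR adjusted p = 1; -1.11 without cohort 5), against 128, 264 and 164 CPM in HFD with STZ. Over all 32 response lists edgeR called 0 members in the fit of the islet libraries. Over the alternatives 9 of the 32 list medians kept their sign, those of growth factors, cholesterol synthesis, fatty acid synthesis, MHC class II, interferon-stimulated genes, heat shock chaperones, ribosomal proteins, immediate early genes and iron and NRF2, and the other 23 did not. The lipid-associated list was among the 23, with a median of 0.11 without the HFD library of cohort 1 and 0.11 without the ND library of cohort 1. Of the 9, growth factors had a median as low as 0.013 and cholesterol synthesis and uptake as low as 0.001. In these lists only 5 and 6 members had at least 10 CPM in all 8 libraries.

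Further genes among the 30 with the smallest p had more than 3 counts in every library and belong to no list. Rnf20, a ubiquitin ligase of histone H2B, did not overlap, at 33.1, 51, 46.6 and 55.8 CPM in HFD and 101.4, 77.2, 135 and 88.5 CPM in ND libraries (log2 -1.10 ± 0.30, edgeR adjusted p = 1). Olfml3, a secreted protein that microglia are known to express, did not overlap either, at 264, 417, 314 and 258 CPM in HFD and 147, 159, 234 and 218 CPM in ND libraries (log2 0.72 ± 0.20, edgeR adjusted p = 1). Slc29a3, a nucleoside transporter of lysosomes, was higher in HFD in 4 of 4 cohorts (log2 0.49 ± 0.15), as were Mycbp2, a ubiquitin ligase gene (log2 0.95 ± 0.27), and Pafah1b2, a catalytic subunit of platelet-activating factor acetylhydrolase (log2 1.29 ± 0.36). Nktr, a cyclophilin-like gene, was lower in 4 of 4 cohorts (log2 -0.70 ± 0.19), and so was Nom1, a nucleolar protein gene, at 6.87 to 33.2 CPM in HFD and 48.5 to 63.5 CPM in ND libraries (log2 -1.85 ± 0.58; -2.23 without cohort 5). Each had an adjusted p of 1 in edgeR. Of the 133 named genes 32 have exons that overlap another gene, among them Ctsd, Ptgs1, Nktr and Wdr62, so their counts are uncertain.

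The other 9 of the 30 genes had a library with 3 counts or fewer, and all 9 were higher in HFD. Wdr62, a spindle pole protein gene, was at 10.2, 12, 12.4 and 5.61 CPM in HFD libraries and had 1 count over the 4 ND libraries. Lpar5, a receptor for lysophosphatidic acid, was at 7.59, 8.97, 6.25 and 3.09 CPM in HFD libraries and also had 1 count over the ND libraries. Alg2, a mannosyltransferase gene, was at 43.2, 16.4, 10.3 and 23.6 CPM in HFD, while the ND libraries held 18.3, 0, 0 and 0.0752 CPM. Cdyl2, Tmem26, Elp4 and 4933427D14Rik reached 1.05 CPM at most in an ND library, and Stard8, like Alg2, was high in the ND library of cohort 1, at 22.3 CPM. All-or-none counts of this kind were frequent. Of the 12406 genes 39.2% had a library of the 8 at 0 counts, and 3177 genes had more ND than HFD libraries at 0 against 796 with more HFD than ND libraries at 0. As given above, the HFD libraries also had more genes with a count, and the part of this in the higher values of such genes was not tested.

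Islet hormone RNA was present in all 8 libraries. Summed over 12 beta cell genes the level was 4124, 6220, 4520 and 3519 CPM in HFD and 3232, 1938, 2791 and 6074 CPM in ND libraries (exact permutation p = 0.314, adjusted p = 0.9), and 1738, 3298 and 2428 CPM in HFD with STZ. The ND library of cohort 5 and the HFD library of cohort 3 were the highest. Ins2 stood at 2551, 4091, 2845 and 2083 CPM in HFD and 2028, 1208, 1599 and 3758 CPM in ND libraries (log2 0.51 ± 0.37, edgeR adjusted p = 1), and Ins1, a near copy of it, at 806 to 1810 CPM in HFD and 454 to 1499 CPM in ND libraries. Without cohort 5 the log2 values were 1.01 for Ins2 and 1.09 for Ins1. Gcg, the glucagon gene of alpha cells, ranged from 11.5 to 56.8 CPM in HFD and from 6.61 to 135 CPM in ND libraries. Acinar enzyme RNA summed to 4.85, 872, 172 and 132 CPM in HFD and 64.1, 4.97, 128 and 92 CPM in ND libraries (exact permutation p = 0.286, adjusted p = 0.9). Of 18 lists of other cells 0 differed at an unadjusted p below 0.05, where 0.0286 is the smallest p that 4 against 4 libraries allow, and adjusted p ran from 0.9 to 1. These sums are CPM of the raw library totals.

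The diet effect was also set against that in peritoneal macrophages (4 HFD and 5 ND libraries of 100000 cells) and in microglia (4 HFD and 4 ND libraries of 5000 cells). A joint edgeR fit of the 37 libraries called the difference of the HFD effect between islet and peritoneal macrophages for 70 of 17230 genes (0.406%), and between islet macrophages and microglia for 68 (0.395%). Of these, 65 and 62 had an islet library at 0 counts. The genes with the smallest p were the same 5 in both tests, Lpar5, Mapk1ip1, Slc37a3, Nectin2 and Trim2. Mapk1ip1 stood at 4.60 to 9.34 CPM in HFD and 0 in ND islet libraries, Nectin2 had 0 counts in all 4 HFD islet libraries and 0 to 8.37 CPM in ND islet libraries, and Slc37a3 and Trim2 had HFD as well as ND islet libraries at 0. In that fit each gene has 1 spread that all populations share, although the common biological coefficient of variation was 1.18 in islet, 0.296 in peritoneal and 0.868 in microglia libraries when each population was fitted alone. Islet and peritoneal libraries whose titles end in the same number may come from 1 mouse, which the labels do not state. The fit treated such libraries as independent. With weights for each population in voom, 4 and 3 genes were called, and without the ND library of cohort 5 edgeR called 169 and 206.

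For HFD against ND itself, the joint fit called the 195 islet genes given above, 0 genes in peritoneal macrophages and 2 in microglia. Of the 195, 9 had at least 10 CPM in all 8 islet libraries, among them Nr3c1, Aim2, Mycbp2, Pafah1b2, Ptgs1 and Uggt1, and adjustment over the 4345 genes at that level left 3.

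Nr3c1 was called in both tests of a difference with edgeR. The joint fit gave a log2 fold change of HFD over ND of 1.38 ± 0.18 in islet macrophages (edgeR adjusted p = 0.000345, where the fit of the islet libraries gave 1), -0.17 ± 0.17 in peritoneal macrophages and -0.04 ± 0.18 in microglia. Levels on the joint scale were 87.1 ± 19.1 CPM in HFD and 34.8 ± 13.4 CPM in ND islet libraries, 82.1 ± 9.19 CPM in HFD and 90.6 ± 6.77 CPM in ND peritoneal libraries, and 196.5 ± 44.1 CPM in HFD and 199.1 ± 31.8 CPM in ND microglia libraries (SD). The difference was 1.55 ± 0.25 between islet and peritoneal macrophages (edgeR adjusted p = 0.00727) and 1.42 ± 0.26 between islet macrophages and microglia (edgeR adjusted p = 0.00937). It was the 1 gene called in each test when p was adjusted over the 4345 genes with at least 10 CPM in all 8 islet libraries (adjusted p = 0.0113 and 0.0473). In voom with quality weights the adjusted p was 0.309 and 0.551, so Nr3c1 was not called there, at log2 differences of 1.47 from peritoneal macrophages and 1.26 from microglia. Plin2 had a log2 value of 0.58 ± 0.23 in islet macrophages, -0.31 ± 0.23 in peritoneal macrophages and 0.40 ± 0.23 in microglia, and its differences were not called (edgeR adjusted p = 0.335 and 1).

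**Figure D5:**
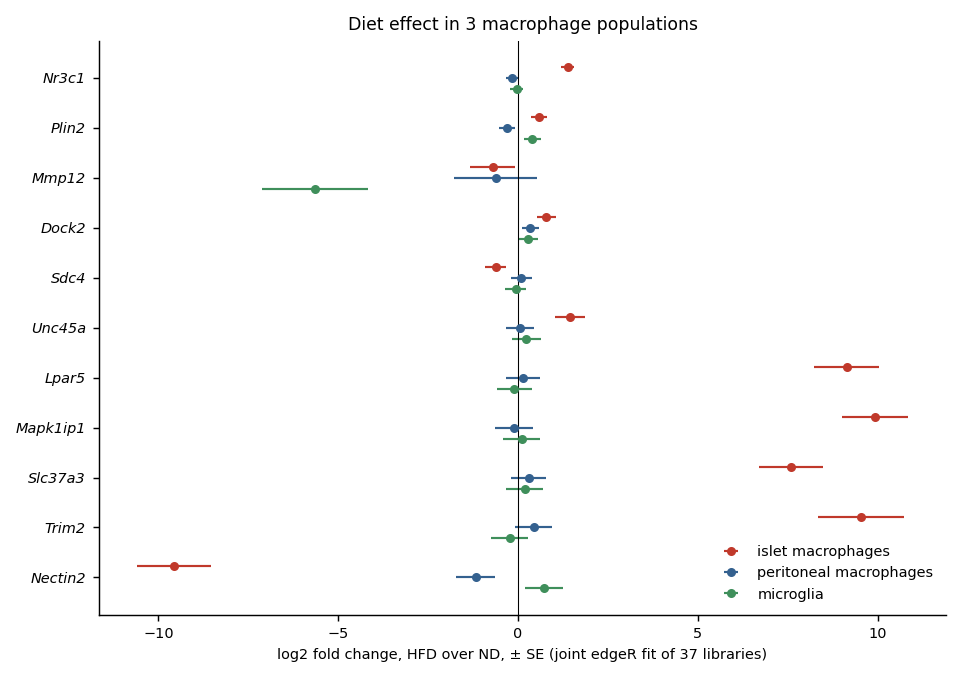
Log2 fold change of HFD over ND ± SE (x axis) for 11 genes (y axis) in islet macrophages (red), peritoneal macrophages (blue) and microglia (green), from the joint edgeR fit of 37 libraries. The islet value of Nr3c1 is 1.38 and those of the other populations lie next to 0. Lpar5, Mapk1ip1, Slc37a3, Trim2 and Nectin2 have islet values far from 0 that rest on libraries at 0 counts. So does the microglia value of Mmp12, with 3 of 4 HFD and 2 of 4 ND microglia libraries at 0. The peritoneal value of Mmp12 rests on levels of 0.9591 CPM at most, with 2 of 4 HFD and 1 of 5 ND peritoneal libraries at 0.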

How the data were processed

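Libraries were prepared from DNase-treated PicoPure RNA, per the labels' protocols. The values are whole-number read counts per gene that the authors deposited, made with Trimmomatic 0.36, STAR 2.5.1a and featureCounts on mm10, per the submitters' processing notes. For the counting, the release of the annotation, strandedness and handling of multi-mapping reads were not given in the sources used here. Of 50686 gene identifiers 50376 matched a symbol, and gene positions are those of GENCODE M21 (GRCm38, mm10).

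The counts of the 11 islet libraries of the diet experiment were filtered with filterByExpr, scaled by TMM and fitted with edgeR 4.0.16 (robust quasi-likelihood, 5 residual degrees of freedom), with cohort as a block, in R 4.3.3. Benjamini-Hochberg adjustment ran over all genes tested, and adjusted p-values below 0.05 were called. CPM per gene use the TMM-scaled totals of these libraries. The cohort pairs the libraries because the labels give it as a shared batch, and same-cohort libraries deviated together with r of 0.265, 0.063, 0.125 and 0.287 in cohorts 1, 3, 4 and 5. The diet effects of 3 macrophage populations were compared in an edgeR fit of 37 libraries. List sums were compared by exact permutation tests, two-sided. Depth was 11.8 to 15.7 M counts in the 11 libraries. DESeq2 1.42.0, limma 3.58.1 (voom), other filters, size factors and sets of libraries were tried as alternatives. The edgeR step was also run on simulated counts with known fold changes, and the numbers of genes recovered are not given here.

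As fewer than 20 genes were called, the named genes are the 30 with the smallest p, the 3 members of each response list with the smallest p, 24 genes fixed by name, of which Pdk4 had no counts, and the 5 with the smallest p in each test between populations. Results for 2 of these genes are not reported here. The members and lists were chosen with earlier results of these data known. Other populations and experiments of the series were not analysed here beyond the comparison above.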

Additional observations from a re-analysis of the deposited data

Results flagged for a closer look

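In each diet the 4 libraries were checked for 1 that stood apart from the other 3 by more than Dixon's 95% critical value. For normally distributed values chance exceeds it in about 1 in 20 groups. Of 312 such groups 42 held one. A group with 3 libraries at 0 counts always passes, as for Wdr62, Lpar5 and Elp4 in ND, each with 1 count. The 42 therefore cannot be set against that rate. The B cell and plasma cell sum was highest in cohort 5 of both diets, at 24410 CPM in HFD and 17080 CPM in ND, and so was the NK and innate lymphoid sum, at 313.8 CPM in HFD and 216.4 CPM in ND. Kif23, a kinesin of dividing cells, was also highest in cohort 5 of both diets, at 17.1 CPM in HFD and 2.706 CPM in ND. Their part in the diet values of other genes was not tested.

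Among HFD libraries, that of cohort 1 was highest for Slc40a1 (59.5 CPM), Prdx1 (2196 CPM) and the erythroid sum (3.945 CPM) and had the fewest genes with a count (12036). That of cohort 3 was highest for Ccr1 (77.29 CPM), Dnajb11 (180 CPM), Itgax (611 CPM) and the acinar enzyme Cpa1 (36.19 CPM). That of cohort 4 was highest for Nktr (332.1 CPM) and the delta and PP cell sum (182.2 CPM). That of cohort 5 was highest for Bag3 (1397 CPM) and Egr1 (381.8 CPM) and lowest for Tgfbi (635.3 CPM).

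Among ND libraries, that of cohort 1 was highest for Alg2 (18.34 CPM), Stard8 (22.28 CPM), Il1rap (42.2 CPM), Hk1 (27.43 CPM) and Slc2a3 (14.93 CPM) and lowest for the classical monocyte sum (269.3 CPM). That of cohort 3 was highest for Wdr62 and Lpar5 (0.06545 CPM each), Tmem26 (0.9817 CPM), Gpnmb (48.69 CPM) and the adipocyte sum (12.49 CPM), and lowest for the sum of genes shared by endocrine cells (58.69 CPM). That of cohort 4 was highest for Elp4 (0.0722 CPM) and Klf9 (8.736 CPM). That of cohort 5 was highest for Cdyl2 (1.052 CPM), 4933427D14Rik (0.4511 CPM), Fgf2 (2.03 CPM), Elovl6 (8.119 CPM), Itgb3 (3.007 CPM), Per3 (1.353 CPM), Igf2r (2.255 CPM), the erythroid sum (0.38 CPM) and the Schwann cell and neuron sum (10.03 CPM).

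The edgeR test of the difference in the HFD effect passed for 21 values among the named genes. On the log2 scale, islet minus peritoneal and islet minus microglia were 8.997 and 9.25 for Lpar5, 10.03 and 9.825 for Mapk1ip1, 7.3 and 7.414 for Slc37a3, -8.394 and -10.282 for Nectin2, and 9.101 and 9.768 for Trim2. They were 6.381 and 6.471 for Alg2, 8.878 and 8.239 for Wdr62, 4.246 and 4.499 for Stard8, and 8.793 and 8.317 for Elp4. Each of these genes except Stard8 had an islet library at 0 counts, and Stard8 had at most 0.4511 CPM in the ND libraries of cohorts 3, 4 and 5, so the sizes depend on the prior count of the fit. For Nr3c1, with counts in every islet library, they were 1.548 and 1.415. For Cxcl1 islet minus microglia was -7.956, where all 4 ND microglia libraries had 0 counts and HFD microglia libraries ranged from 0 to 4.376 CPM.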

How the results depend on the processing

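For HFD against ND, edgeR fits of islet libraries called 0 genes in each alternative run, where 300 genes had an unadjusted p below 0.05 as reported: RLE size factors, no filter, a filter of 10 CPM in 4 libraries, the 8 libraries alone, no replicate block (389 at an unadjusted p below 0.05), no endocrine and acinar genes, each library left out in turn (0 to 0 called), cohort 5 left out and genes at 10 CPM or more in all 8 libraries. Voom also called 0. The islet contrast of the joint edgeR fit of 37 libraries called 195, 174 higher and 21 lower. DESeq2 called 224 genes, 191 higher and 33 lower, with 11 memberships of lists. With its p-values adjusted over genes at 10 CPM or more it called 1 gene (Mmp12), 0 higher and 1 lower, which is in 2 lists. Of 2551 values of named genes under the alternatives fitted on islet libraries 35 changed sign, none of them called, and 21 passed the threshold, all with DESeq2. Of 640 list medians 525 kept their sign and 18 moved by more than the SD over cohorts. For the difference of the HFD effect from peritoneal macrophages and from microglia, edgeR called 70 and 68 genes and voom 5 and 4. Voom with weights by population called 4 and 3, and edgeR with no replicate block 44 and 67. With p adjusted over genes at 10 CPM or more edgeR called 1 and 1, and without 1 islet library 72 to 169 and 96 to 206. The cause of these differences was not tested. The islet contrast of the joint fit and the alternatives without both cohort 5 libraries, by population and at 10 CPM or more were chosen after seeing the data. With 4 libraries a diet, 400 cells each and 5 residual degrees of freedom, precision was limited. For genes at 10 CPM or more in all 8 libraries, the 95% interval reached 0.871 log2 units to each side at the median. As this interval is not adjusted for the number of genes tested, it is no limit of detection. Larger differences also went uncalled in the edgeR fit of the islet libraries, such as that of Nr3c1 (log2 1.345).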
